A study of Rattus norvegicus with 12 samples.

Results

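The ileum reclaims bile acids through a set of transporters, a binding protein and a nuclear receptor circuit, and 10 genes of that system were followed here in rat intestine: Slc10a2, Malrd1, Fabp6, Slc51a, Slc51b, Nr1h4, Fgf19, Abcc3, Abcc2 and Abcb11. They were taken by gene symbol from the 18749 genes of the deposited count table, and all 10 were among the 15704 genes that passed the filter on low counts and were tested. The series is titled as a study of how the small intestine adapts after total colectomy, the removal of the colon. It holds RNA sequencing of polyadenylated RNA from 12 samples, all labelled as wild type rat intestine of batch 1. The 4 libraries of preSTC were labelled as preoperative and the 4 of postSTC as postoperative. The 4 libraries of preCTC were labelled as taken ahead of a sham operation. The labels do not explain STC and CTC, and the sources used here do not give strain, age, gut segment or the time after the operation. Samples from after a sham operation were not analysed here, and effects of the operation and of time cannot be told apart. The labels do not say that libraries of 1 group came from separate animals, so the p-values reflect only how much these samples spread, and part or all of that spread may be technical.

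Bile acids are made from cholesterol in the liver, help to absorb fat in the small intestine, and are taken back up mainly in the last stretch of the ileum. There the apical sodium-dependent transporter encoded by Slc10a2 carries them into the enterocyte, the binding protein encoded by Fabp6 holds them in the cytosol, and the heteromer of the Slc51a and Slc51b products releases them towards the portal blood. Inside the cell they activate the nuclear receptor FXR, the product of Nr1h4, which induces Fabp6, Slc51a, Slc51b and the hormone gene Fgf19 (long called Fgf15 in rodents), and the hormone lowers bile acid synthesis in the liver.

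RefSeq promoter windows of build GRCr8, the 250 bases before each annotated start, were found for 6 of the 10 genes: Slc10a2, Malrd1, Fabp6, Slc51a, Slc51b and Abcc2. Nr1h4, Fgf19, Abcc3 and Abcb11 had no entry. Each window was searched on both strands for the inverted repeat AGGTCANTGACCT (IR-1), the classic motif of FXR with its partner RXR, for the palindrome GTTAATNATTAAC of the HNF1 factors, and for the direct repeat AGGTCANAGGTCA (DR-1) of HNF4 and RXR, which shares part of its letters with IR-1. The windows of Fabp6, Slc51b and Slc10a2 are shown, each written in the direction of its gene. Capitals mark the best IR-1 match in Fabp6 and Slc51b and the best HNF1 match in Slc10a2. Slc51a, which is not shown, had as few IR-1 mismatches as Slc51b. The Slc51b window also held an HNF1 match with 2 mismatches, fewer than its IR-1 match, which is not marked. The Fabp6 window is chr10:28569728-28569977 on the minus strand, that of Slc51b is chr8:74835110-74835359 on the minus strand, and that of Slc10a2 is chr16:91087839-91088088 on the plus strand.
Fabp6: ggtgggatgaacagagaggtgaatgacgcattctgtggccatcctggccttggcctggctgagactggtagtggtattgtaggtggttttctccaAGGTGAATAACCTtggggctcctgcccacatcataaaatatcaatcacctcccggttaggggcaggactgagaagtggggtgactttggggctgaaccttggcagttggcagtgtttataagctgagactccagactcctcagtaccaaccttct
Slc51b: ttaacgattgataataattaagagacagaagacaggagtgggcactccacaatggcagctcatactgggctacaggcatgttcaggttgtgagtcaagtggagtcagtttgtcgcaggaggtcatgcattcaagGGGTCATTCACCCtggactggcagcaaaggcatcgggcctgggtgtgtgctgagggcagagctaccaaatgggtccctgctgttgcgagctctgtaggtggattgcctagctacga
Slc10a2: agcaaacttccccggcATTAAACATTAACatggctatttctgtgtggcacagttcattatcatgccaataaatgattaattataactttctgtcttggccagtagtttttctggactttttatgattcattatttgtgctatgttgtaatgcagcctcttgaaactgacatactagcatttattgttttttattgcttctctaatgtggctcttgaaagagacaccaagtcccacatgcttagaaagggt
The best IR-1 match of Fabp6, AGGTGAATAACCT, lay 155 to 143 bases before the start and had 2 mismatches, and 1.24% of 33360 distinct RefSeq promoter windows of the same length held a match with as few. Slc51b had GGGTCATTCACCC with 3 mismatches, 116 to 104 bases before the start. Slc51a and Malrd1 also had 3 mismatches at best, as did 10.4% of all windows, while Slc10a2 and Abcc2 had 4, a level reached by 51.0% of windows. For the HNF1 palindrome, Slc10a2 held ATTAAACATTAAC, 234 to 222 bases before the start, with 2 mismatches, and Slc51b also had 2, against 1.09% of all windows. Malrd1 and Abcc2 had 3 mismatches to that palindrome, as did 7.75% of windows, and Fabp6 and Slc51a had 5. For DR-1 the best match was that of Abcc2, with 3 mismatches, a level reached by 21.4% of windows, and the other 5 windows had 4. A match is a likeness of letters and does not show that a factor binds there.

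Each library held 30095656 to 39374682 counts, and values below are CPM, the counts of a gene relative to the scaled total of the library, after scaling by the trimmed mean of M values, unless FPKM, which also divides by gene length, is named. A few libraries stood apart from the others of their group. In postSTC7, 42.9% of the counts lay in 10 male accessory gland genes, against at most 0.0243% in any other library, and its scaling factor was 0.568 against 0.970 to 1.15 elsewhere. Among postSTC libraries, postSTC1 had 28.6 CPM of Gata4 and 243 CPM of the lactase gene Lct, both genes of the upper small intestine, against at most 0.403 and 7.22 CPM in the other postSTC libraries. The sum over a list of 7 such genes was 1155 CPM in postSTC1, 352 in postSTC2, 274 in postSTC5 and 205 in postSTC7. Cybrd1 of that list went the other way, at 20.7 CPM in postSTC1 against 34.8 to 40.6 CPM in the other postSTC libraries. The preCTC libraries carried the colon gene Hoxb13 at 315 to 445 CPM, except preCTC5 at 1.44 CPM, and preCTC5 had 3108 CPM of the colon gene Car1. Summed over 18 small intestinal enterocyte genes, levels were 16920.5 to 19621 CPM in preSTC, 8165 to 28166 CPM in postSTC and 654 to 817 CPM in preCTC. The sum over 9 colon genes was 45.4 to 71.9 CPM in preSTC, 219 to 637 CPM in postSTC and 1591 to 3587 CPM in preCTC.

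**Figure D1:**
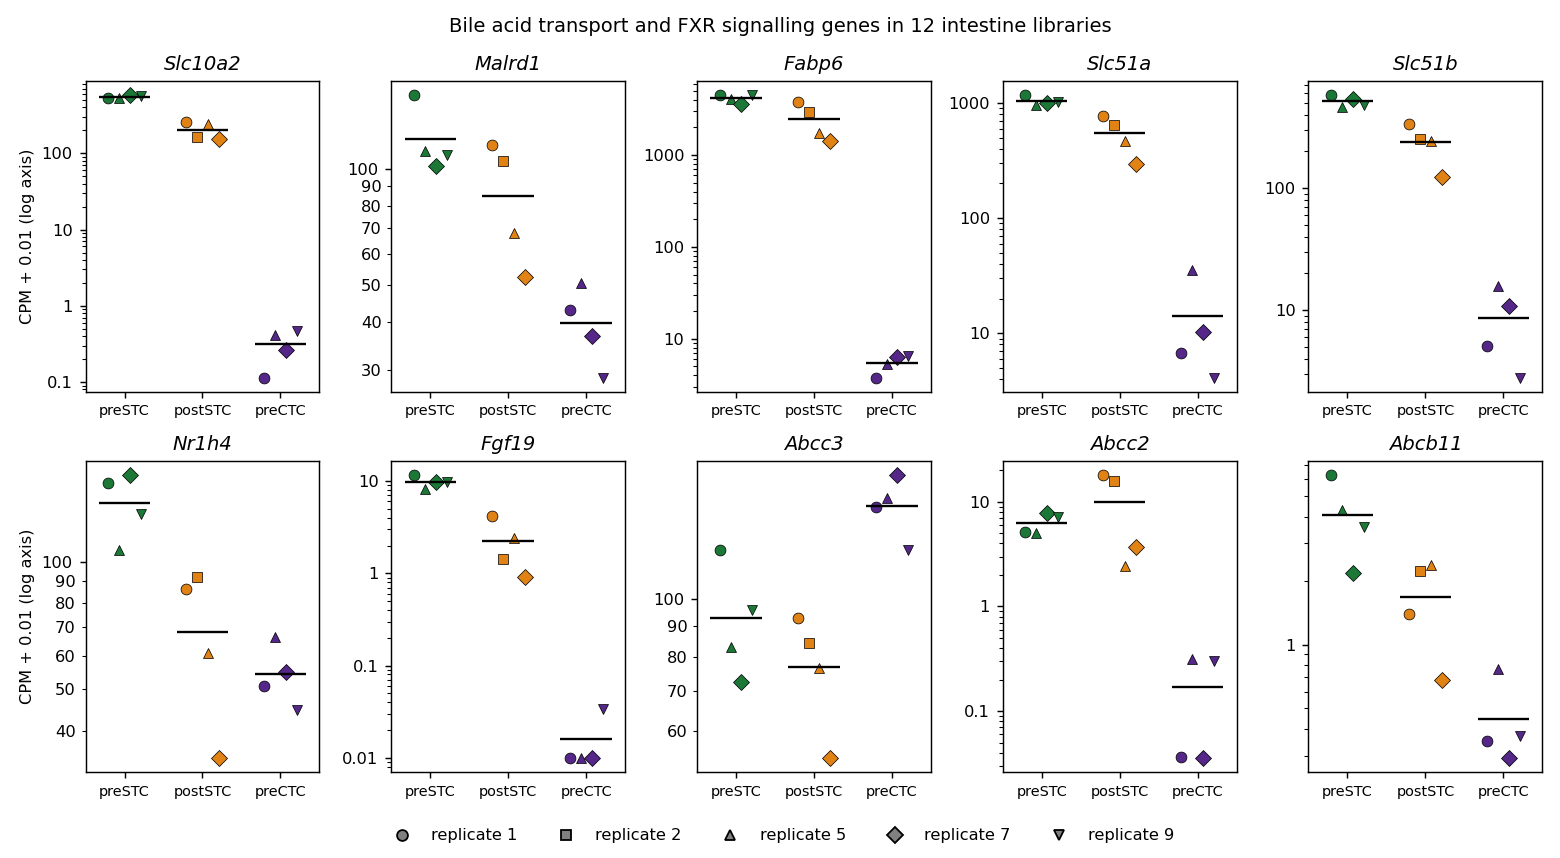
CPM of each of the 10 genes (log axes with 0.01 added, each panel with its own range) in the 12 libraries by group, with a symbol for each replicate number and a bar at the group mean. The preCTC points lie under all preSTC points for every gene but Abcc3, and the postSTC points of Slc10a2, Slc51a, Slc51b, Nr1h4 and Fgf19 lie under all their preSTC points.

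After the operation, the uptake transporter gene Slc10a2, the receptor gene Nr1h4 and the hormone gene Fgf19 were lower than before it. Their postSTC means were 37.1%, 49.8% and 22.8% of the preSTC means. These were 3 of the 10 genes called at an adjusted p under 0.05, all in the same direction, where 6.90% of the 15704 genes tested were called lower and 11.1% higher. For 5 of the 10 (Slc10a2, Slc51a, Slc51b, Nr1h4 and Fgf19) every postSTC library lay below every preSTC library, which held for 10.2% of all genes tested (22.1% did not overlap in either direction). The median log2 difference of the 10 genes was -0.96, against 0.04 over all genes tested. In bulk tissue, fewer cells of a type and less RNA per cell cannot be told apart. Calls are from edgeR's quasi-likelihood test with Benjamini-Hochberg adjustment over all genes tested. With the replicate numbers as a block in the 8 libraries compared, 0 of the 10 genes and 66 genes in all were called, with the fold of Slc10a2 at -1.38 (log2) and adjusted p-values from edgeR of 0.0793 for Slc10a2, 0.126 for Nr1h4 and 0.107 for Fgf19. In that fit 8 of the 10 genes were lower at an unadjusted p under 0.05, against 6 without the block. The share of all genes tested at this unadjusted threshold is not given here, so these counts have no background beside them. None of the 3 calls held with a score of epithelial or smooth muscle genes as a covariate either, as given below with the marker genes.

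**Figure D2:**
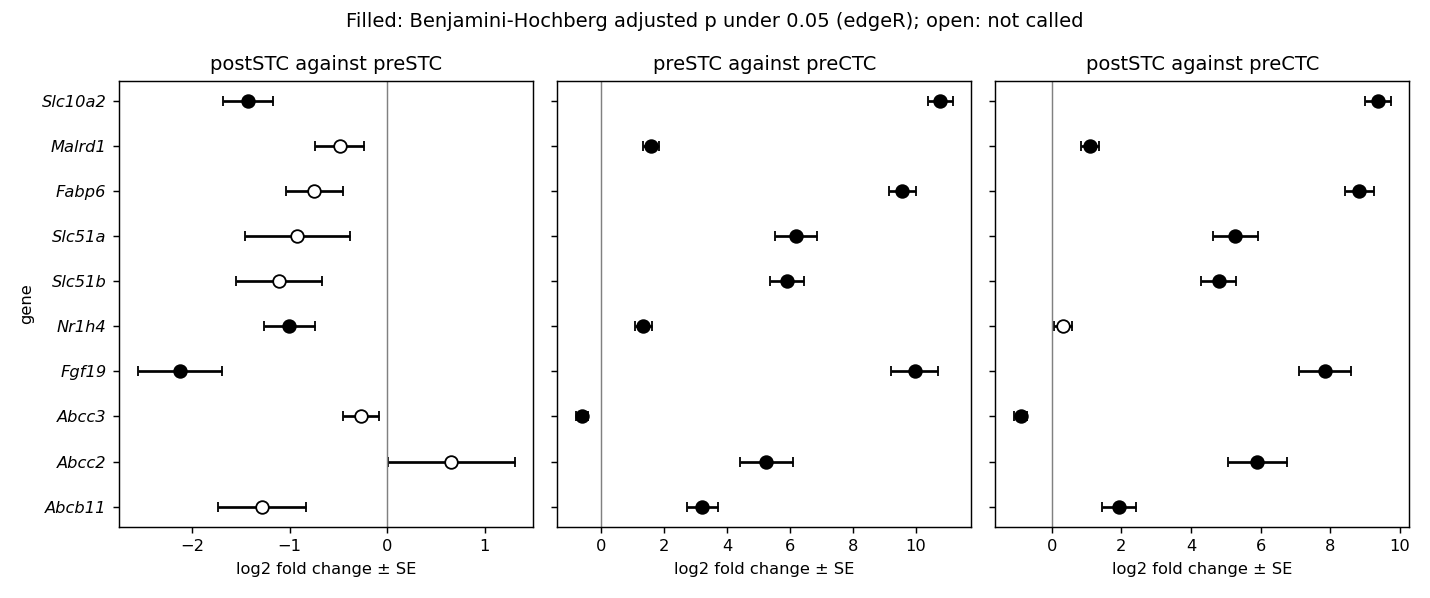
Log2 fold change (points) and standard error (bars) of the 10 genes in the 3 comparisons from edgeR's quasi-likelihood fit, with filled points at an adjusted p under 0.05 (the fitted fold of Fgf19 against preCTC rests on 1 preCTC count). After the operation 3 genes were called lower than before it, while preSTC exceeded preCTC for 9 genes and lay below it for Abcc3.

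Slc10a2 encodes the transporter that takes bile acids up from the gut lumen. Its level was 538, 524, 578 and 561 CPM in preSTC1, preSTC5, preSTC7 and preSTC9, and 261 CPM in postSTC1, 163 in postSTC2, 239 in postSTC5 and 155 in postSTC7. The preSTC libraries were close together and all lay above the highest postSTC library. The group means were 550.5 ± 23.9 and 204 ± 53.4 CPM (SD, n = 4 each), and the log2 fold change was -1.43 ± 0.25 (SE), with an adjusted p of 0.00387 by edgeR's quasi-likelihood test. Without postSTC7, the library rich in accessory gland RNA, the log2 fold change was -1.32 with an edgeR adjusted p of 0.00443.

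In preCTC, Slc10a2 was nearly absent. The 4 libraries, preCTC1, preCTC5, preCTC7 and preCTC9, held 0.105, 0.406, 0.257 and 0.458 CPM, which came from 49 counts in all. Against preCTC, the log2 fold change of preSTC was 10.79 ± 0.39 (SE) and that of postSTC 9.36 ± 0.37, with edgeR adjusted p-values of 9.4e-09 and 4.35e-08. Slc10a2 passed the filter on low counts through the other groups, so it had to differ from preCTC to be tested.

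Malrd1 encodes a large enterocyte protein, also known as Diet1, that affects how much of the hormone the gut makes. It measured 156, 111, 102 and 109 CPM in preSTC1, preSTC5, preSTC7 and preSTC9, and 115 CPM in postSTC1, 105 in postSTC2, 68.1 in postSTC5 and 52.4 in postSTC7. The ranges overlapped, since postSTC1 and postSTC2 lay among the preSTC libraries. Its log2 fold change from preSTC to postSTC was -0.49 ± 0.25 (SE), with an adjusted p of 0.198 by edgeR's quasi-likelihood test. In preCTC the level was 28.6 to 50.4 CPM, below every other library, and Malrd1 was called higher in preSTC (log2 fold change 1.59 ± 0.26, edgeR adjusted p 0.000571) and in postSTC (1.10 ± 0.25, edgeR adjusted p 0.0121).

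Fabp6, the cytosolic bile acid binding protein gene, was the most abundant of the 10 by FPKM in preSTC and postSTC. Among all 18749 genes it ranked 3, 3, 5 and 4 by FPKM in preSTC1, preSTC5, preSTC7 and preSTC9, and it ranked 1 in both postSTC1 and postSTC2, 4 in postSTC5 and 21 in postSTC7. In preCTC its ranks ran from 4901 to 6946. Its transcripts took 0.350% to 0.449% of all counts in preSTC and 0.390% in postSTC1. The share was 0.0799% in postSTC7, whose total includes the accessory gland counts.

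On the CPM scale Fabp6 was at 4495, 4100.2, 3570.5 and 4501 in preSTC1, preSTC5, preSTC7 and preSTC9, and at 3797 in postSTC1, 2972 in postSTC2, 1755 in postSTC5 and 1409 in postSTC7. Library postSTC1 lay within the preSTC range and the other 3 lay below it. The log2 fold change of -0.75 ± 0.29 (SE) did not pass the threshold, with an adjusted p of 0.0951 by edgeR's quasi-likelihood test. Without postSTC1 it was -1.03 with an edgeR adjusted p of 0.0206. In preCTC Fabp6 stood at 3.77, 5.32, 6.27 and 6.43 CPM, far below every other library. Against preCTC, preSTC had a log2 fold change of 9.58 ± 0.42 (edgeR adjusted p 4.86e-08) and postSTC one of 8.83 ± 0.41 (edgeR adjusted p 1.13e-07). The FPKM of Fabp6 was 53.8 to 72.7 times that of Slc10a2 in preSTC and 64.0 to 158 times in postSTC.

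Slc51a and Slc51b encode the subunits of the basolateral transporter that passes bile acids on to the blood. Slc51a was at 1170.2, 952, 999 and 1017 CPM in preSTC1, preSTC5, preSTC7 and preSTC9, and at 775 CPM in postSTC1, 648 in postSTC2, 471 in postSTC5 and 293 in postSTC7. Slc51b was at 577, 459, 539 and 480.0 CPM in the same preSTC libraries, and at 333 CPM in postSTC1, 252 in postSTC2, 242 in postSTC5 and 124 in postSTC7. For both subunits every postSTC library lay below every preSTC library, and postSTC7 was the lowest.

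From preSTC to postSTC, Slc51a had a log2 fold change of -0.92 ± 0.54 (SE), with an adjusted p of 0.256 by edgeR's quasi-likelihood test. For Slc51b it was -1.11 ± 0.44, with an edgeR adjusted p of 0.0972. Neither passed the threshold. DESeq2 gave Slc51b an adjusted p of 0.0403, and edgeR gave 0.0279 when only the 8 libraries compared were fitted.

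The subunit genes were at like levels per length. The ratio of Slc51a to Slc51b FPKM was 0.861 to 0.983 in preSTC, 0.902 to 1.19 in postSTC and 0.441 to 1.04 in preCTC. In preCTC, Slc51a measured 6.80, 35.4, 10.2 and 4.12 CPM and Slc51b 5.05, 15.8, 10.7 and 2.79 CPM in preCTC1, preCTC5, preCTC7 and preCTC9. Both were highest in preCTC5, the library with little Hoxb13, and all preCTC levels lay below those of preSTC and postSTC. The log2 fold change of preSTC over preCTC was 6.19 ± 0.67 for Slc51a (edgeR adjusted p 3.85e-05) and 5.90 ± 0.53 for Slc51b (edgeR adjusted p 1.15e-05). Without preCTC5 that of Slc51a was 7.199, and its postSTC over preCTC value moved from 5.27 to 6.28.

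**Figure D3:**
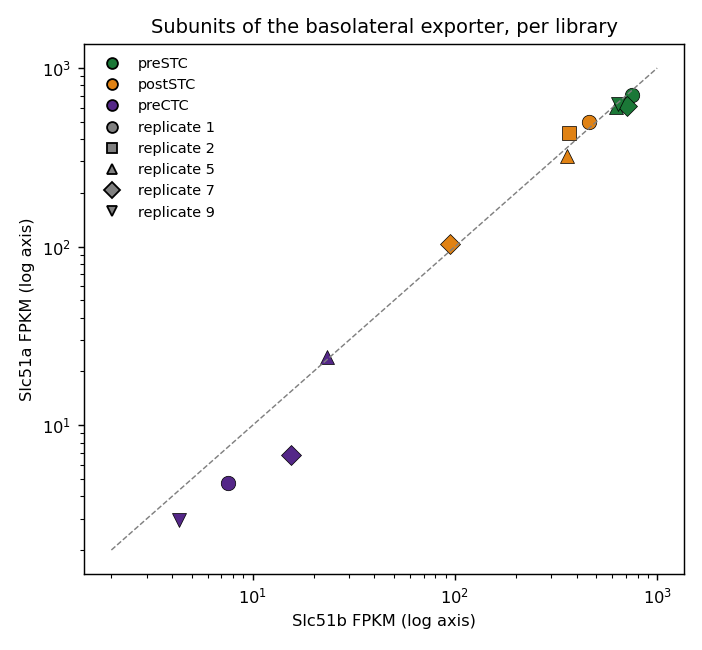
FPKM of Slc51a against that of Slc51b (log axes) in the 12 libraries, coloured by group with a symbol for each replicate number, and the line of equal FPKM. The libraries of preSTC and postSTC lie close to the line, with ratios of 0.861 to 1.19, and preCTC reaches from 0.441 to 1.04.

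Nr1h4 encodes FXR, the receptor that senses bile acids. It was at 153, 106, 160 and 129.6 CPM in preSTC1, preSTC5, preSTC7 and preSTC9, at 86.1 CPM in postSTC1, 91.9 in postSTC2, 60.8 in postSTC5 and 34.5 in postSTC7, and at 51.0, 66.4, 55.1 and 44.8 CPM in preCTC1, preCTC5, preCTC7 and preCTC9. All preSTC libraries lay above all others, while postSTC and preCTC overlapped. The log2 fold change from preSTC to postSTC was -1.005 ± 0.26 (SE), with an adjusted p of 0.0217 by edgeR's quasi-likelihood test. The edgeR adjusted p was 0.0561 without postSTC5, 0.0599 without preSTC1 and 0.0618 without preSTC7, so this call was lost when any of these 3 libraries was left out.

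Nr1h4 was higher in preSTC than in preCTC by a log2 fold change of 1.34 ± 0.26 (edgeR adjusted p 0.00201). Of the 10 genes it alone was not called between postSTC and preCTC, with a log2 fold change of 0.33 ± 0.26 and an edgeR adjusted p of 0.422. With an FPKM of 17.9 on average in preCTC, it was with Abcc3 (24.5) at the head of the 10 genes there, above Slc51b (12.6) and Fabp6 (12.3).

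Fgf19, the hormone gene that FXR induces, was at 11.5, 8.10, 9.70 and 9.78 CPM in preSTC1, preSTC5, preSTC7 and preSTC9, and at 4.20 CPM in postSTC1, 1.40 in postSTC2, 2.42 in postSTC5 and 0.896 in postSTC7. Its lowest preSTC library lay above its highest postSTC library. Between the groups it was lower after the operation, with a log2 fold change of -2.12 ± 0.43 (SE), with an adjusted p of 0.0076 by edgeR's quasi-likelihood test. The postSTC libraries stood at 43.0%, 14.4%, 24.8% and 9.17% of the preSTC mean. The Fgf19 counts were also set against the Slc10a2 counts of the same library. They came to 1.55% to 2.14% of them in preSTC and 0.579% to 1.61% in postSTC, and these ranges overlapped.

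The 4 preCTC libraries together held 1 count of Fgf19, in preCTC9. The ratio of scaled counts was 1536 for preSTC over preCTC (95% counting interval 275 to 60726) and 358 for postSTC over preCTC (63.8 to 14205). These intervals cover counting error only. The edgeR adjusted p-values were 2.49e-06 and 3.7e-05. Fgf19 passed the filter on low counts through the other groups, so it had to differ from preCTC to be tested.

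Abcc3 encodes an export pump of the basolateral membrane that carries conjugates of bile acids and other compounds. It was the only one of the 10 genes highest in preCTC, at 143, 148, 161 and 121 CPM in preCTC1, preCTC5, preCTC7 and preCTC9. The preSTC libraries held 121, 82.9, 72.4 and 95.8 CPM, with the highest of them just below the lowest of preCTC. The postSTC libraries held 92.7, 84.2, 76.4 and 54.1 CPM and overlapped with preSTC. The log2 fold change from preSTC to postSTC was -0.27 ± 0.18 (SE), with an adjusted p of 0.324 by edgeR's quasi-likelihood test.

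Abcc3 was lower in preSTC than in preCTC (log2 fold change -0.62 ± 0.18, edgeR adjusted p 0.019) and lower in postSTC than in preCTC (-0.90 ± 0.18, edgeR adjusted p 0.00681). The first of these calls was lost when preCTC7, preSTC5, preSTC7 or preSTC9 was left out, with edgeR adjusted p-values of 0.0518, 0.0553, 0.0584 and 0.0501. The second held without each library.

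Abcc2 encodes an apical pump that returns conjugates to the lumen, and it was sparse. Its levels were 5.18, 5.00, 7.89 and 7.23 CPM in preSTC1, preSTC5, preSTC7 and preSTC9. In postSTC1 and postSTC2 they were 17.9 and 15.7 CPM, above every preSTC library, and in postSTC5 and postSTC7 they were 2.45 and 3.67 CPM, below every preSTC library. The 4 postSTC libraries thus lay on both sides of preSTC, and the log2 fold change of 0.65 ± 0.65 (SE) had an adjusted p of 0.517 by edgeR's quasi-likelihood test. The level of Lct was also highest in postSTC1 and next highest in postSTC2, at 243 and 7.22 CPM against 0.559 and 0.672 CPM in postSTC5 and postSTC7. Its part in the spread of Abcc2 was not tested. In preCTC, Abcc2 was at 0.0257 to 0.304 CPM, from 26 counts in all, and the log2 fold change of preSTC over preCTC was 5.25 ± 0.83 (edgeR adjusted p 0.000511). Abcc2 passed the filter on low counts through the other groups, so it had to differ from preCTC to be tested.

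Abcb11 encodes the bile salt export pump, best known from the bile canaliculus of the liver. It was at 6.26, 4.30, 2.16 and 3.59 CPM in preSTC1, preSTC5, preSTC7 and preSTC9, at 1.39 CPM in postSTC1, 2.22 in postSTC2, 2.37 in postSTC5 and 0.672 in postSTC7, and at 0.340, 0.760, 0.283 and 0.361 CPM in preCTC1, preCTC5, preCTC7 and preCTC9. The preSTC and postSTC ranges overlapped through preSTC7, and the log2 fold change of -1.28 ± 0.45 (SE) had an adjusted p of 0.0696 by edgeR's quasi-likelihood test. Against preCTC it was higher in preSTC (3.21 ± 0.49, edgeR adjusted p 0.000414) and in postSTC (1.93 ± 0.48, edgeR adjusted p 0.0174). The postSTC call was lost without preCTC1 (edgeR adjusted p 0.0535) or preCTC7 (0.0531). Of 9 hepatocyte genes in the table, summed levels were 8.53 to 28.9 CPM in preSTC, 5.73 to 13.1 CPM in postSTC and 0.262 to 1.28 CPM in preCTC. Fga was at 7.02 to 25.7 CPM in preSTC, 1.39 to 9.86 CPM in postSTC and at most 0.0241 CPM in preCTC, and was called lower in postSTC than in preSTC (log2 fold change -2.08 ± 0.64, edgeR adjusted p 0.0418). Apoh was at 0.297 to 2.44 CPM in preSTC, 1.62 to 7.81 CPM in postSTC and at most 0.0262 CPM in preCTC. Of the defining hepatocyte genes, Alb was at most 3.54 CPM in any library, and Fgb was at 0 in preSTC and preCTC. The part of hepatocyte genes in the differences of Abcb11 was not tested.

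The 2 sets of samples taken ahead of an operation differed in all 10 genes, where 38.7% of all genes tested were called in either direction. In preSTC, 9 genes were higher than in preCTC (19.1% of all genes tested were called higher) and Abcc3 was lower (19.6% were called lower). The CPM ranges of the groups did not overlap for any of the 10, against 45.0% of all genes tested (22.5% higher and 22.5% lower in preSTC). Slc10a2, Fgf19 and Abcc2 lay at or near 0 in preCTC and passed the filter on low counts through the other groups, so they had to differ from preCTC to be tested. The median log2 difference was 5.57, against -0.02 over all genes. The enterocyte and colon sums given above also separated these groups. Of 18 enterocyte genes 16 were higher in preSTC, and of 9 colon genes 9 were lower. Several of these, such as Si and Apoa4 in preCTC and Hoxa13, Hoxb13 and Hoxd13 in preSTC, lay at or near 0. These too passed the filter on low counts through the other groups. Of 10 smooth muscle genes 9 were lower in preSTC, with summed levels of 3849 to 5835 CPM in preSTC and 11279.7 to 18910.3 CPM in preCTC. Of 9 fibroblast genes 8 were lower in preSTC, with sums of 2358 to 2999 CPM against 6223 to 9288 CPM. Of 6 immune genes 3 were higher in preSTC (Cd3e, Cd74 and Ptprc), with sums over the list of 3039.7 to 4560.0 CPM against 599 to 1236 CPM. Once the smooth muscle score entered as a covariate, 5 of the 10 genes were called between preSTC and preCTC, all higher in preSTC: Slc10a2, Fabp6, Slc51a, Slc51b and Fgf19. The calls of Nr1h4 (edgeR adjusted p 0.373), Malrd1 (0.373), Abcb11 (0.258), Abcc2 (0.143) and Abcc3 (0.0959) were lost in that fit. The 38.7% given above is from the fit without this score. With the score, fewer genes in all were called, as counted in the last section. Every preSTC library had a lower smooth muscle score than every preCTC library, so this fit can hardly separate the score from the group. No conclusion is drawn from which calls were kept or lost. The part of the enterocyte, colon, fibroblast and immune genes in the differences between preSTC and preCTC was not tested.

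After the operation most of the 10 genes were still higher than in preCTC, with log2 fold changes from 1.10 (Malrd1) to 9.36 (Slc10a2) among those called higher. In postSTC, 8 of the 10 genes were higher than in preCTC (9.27% of all genes tested were called higher), Abcc3 was lower (7.37% were called lower, and 16.6% in either direction) and Nr1h4 was not called. The CPM ranges did not overlap for 8 genes, 7 of them higher, against 18.1% of all genes tested (9.54% higher and 8.60% lower). The postSTC and preCTC ranges of Nr1h4 and Abcb11 did overlap. Slc10a2, Fgf19 and Abcc2, counted among the higher genes, lay at or near 0 in preCTC. They passed the filter on low counts through the other groups, so they had to differ from preCTC to be tested. The median log2 difference was 5.03, against 0.04 over all genes. This comparison shares the postSTC libraries with the first and the preCTC libraries with the second, so the 3 are not independent.

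Within postSTC, library postSTC7 was the lowest for 9 of the 10 genes, all but Abcc2, and postSTC1 was the highest for 8. As a percentage of the preSTC mean, the median of the 10 genes was 69.8 in postSTC1, 64.8 in postSTC2, 44.9 in postSTC5 and 28.2 in postSTC7. Fabp6 stood at 91.1%, 71.3%, 42.1% and 33.8% in these 4 libraries, Slc51a at 74.9%, 62.6%, 45.5% and 28.3%, and Malrd1 at 96.5%, 87.9%, 57.1% and 43.9%. Slc51b and Abcc3 ran in the same order, from postSTC1 down to postSTC7. The other 5 genes, which include all 3 called lower, did not. Slc10a2 stood at 47.4%, 29.7%, 43.4% and 28.1%, Nr1h4 at 62.8%, 67.0%, 44.3% and 25.1%, and Fgf19 at 43.0%, 14.4%, 24.8% and 9.17%. The sum of 10 pan-epithelial genes took the order of the medians, at 15729 CPM in postSTC1, 12964 in postSTC2, 10985 in postSTC5 and 7831 in postSTC7, against 14721 to 18706 CPM in preSTC. Of these 10 epithelial genes, 1 was called lower in postSTC by edgeR (Vil1), near the share over all genes. Over all genes tested, 6.90% were called lower and 11.1% higher in this comparison. Smooth muscle sums were 6849 to 10333 CPM in postSTC, above all preSTC libraries, and 5 of 10 smooth muscle genes were higher after the operation. Fibroblast sums were 2795 to 4609 CPM in postSTC, and 4 of 9 fibroblast genes were higher after the operation (Dcn, Fn1, Lum and Thy1). Of the 9 colon genes, 7 were higher after the operation. These 7 lay at or near 0 in preSTC, at most 0.786 CPM. They passed the filter on low counts through the other groups, which favoured a difference from preSTC. The part of the fibroblast and colon genes in the differences of the 10 genes was not tested.

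Each gene was therefore also set against the mean log2 CPM of the epithelial genes in the same library. On this scale Fgf19 had a mean postSTC minus preSTC difference of -1.82, Slc10a2 -0.97, Abcb11 -0.82, Slc51b -0.69, Nr1h4 -0.59, Slc51a -0.51, Fabp6 -0.36 and Malrd1 -0.04, while Abcc3 stood at 0.22 and Abcc2 at 0.69. The 5 genes whose CPM ranges did not overlap kept ranges apart on this scale. Slc10a2 ran from -1.37 to -1.10 in preSTC and from -2.59 to -1.83 in postSTC, and Fgf19 from -7.10 to -6.91 and from -9.43 to -8.17. For Nr1h4 the gap was narrow, from -3.40 to -3.01 against -4.25 to -3.42. With the epithelial score as a covariate, the log2 fold change was -1.20 for Slc10a2 (edgeR adjusted p 0.0636), -1.31 for Fgf19 (0.132) and -0.31 for Nr1h4 (0.405). With a smooth muscle score as the covariate it was -1.43 for Slc10a2 (edgeR adjusted p 0.132), -1.13 for Fgf19 (0.472) and -0.88 for Nr1h4 (0.306). The smooth muscle score did not overlap between preSTC and postSTC, and the epithelial score overlapped only through postSTC1. These fits can therefore hardly separate score from group.

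**Figure D4:**
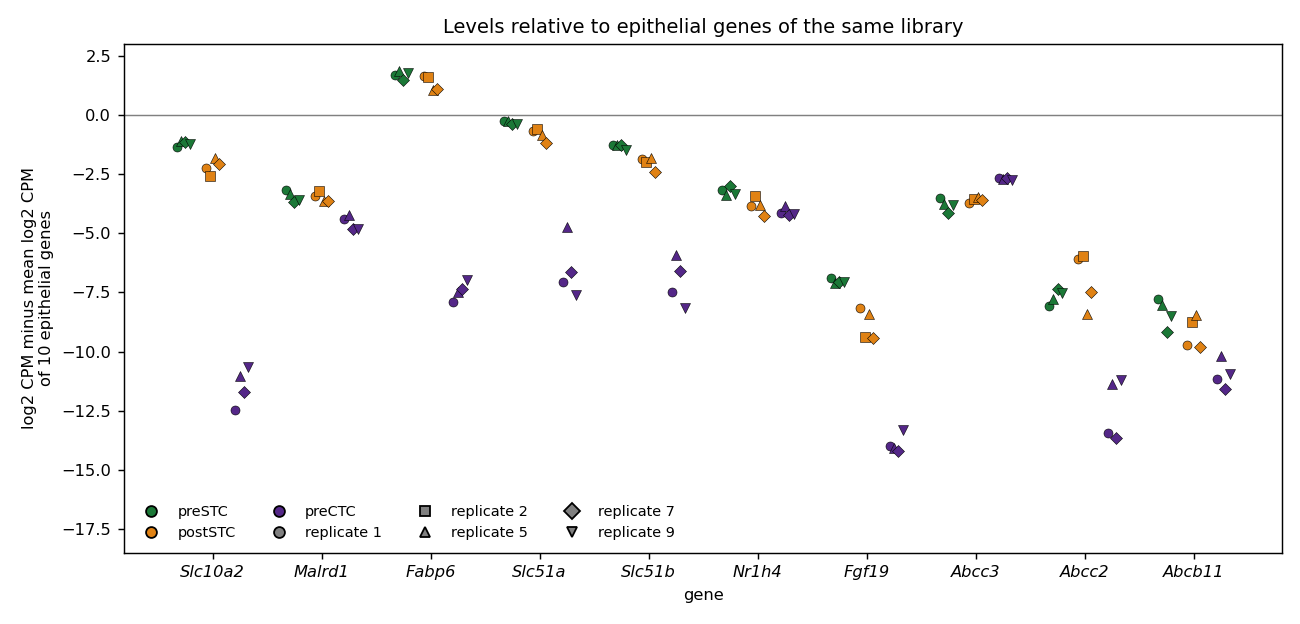
Log2 CPM of each gene minus the mean log2 CPM of 10 epithelial genes in the same library, for the 12 libraries, coloured by group with a symbol for each replicate number. The postSTC points of Slc10a2 (-2.59 to -1.83) and Fgf19 (-9.43 to -8.17) lie below their preSTC points, while those of Malrd1, Fabp6, Abcc3, Abcc2 and Abcb11 overlap with theirs.

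Other genes of bile acid biology were taken as lists. Of 11 tested receptors that sense bile acids or oxysterols and their partners, 1 was called higher in postSTC than in preSTC by edgeR's quasi-likelihood test. Over all genes tested, 11.1% were called higher and 6.90% lower in this comparison, so 1 of 11 is near the background. The gene was Nr1i3, the xenobiotic receptor CAR, at 1.81 ± 0.62 CPM in preSTC and 4.74 ± 2.90 CPM in postSTC (SD, n = 4 each), a log2 fold change of 1.39 ± 0.43 (SE) with an edgeR adjusted p of 0.0424. Nr0b2, the FXR target SHP, had a log2 fold change of -0.16 with an edgeR adjusted p of 0.885. Between preSTC and preCTC the oxysterol receptor gene Nr1h3 was higher (1.32) and Rxrb (-0.50), Rxrg (-1.75) and Vdr (-0.78) were lower. The list's median log2 difference was -0.14 after the operation and -0.03 at baseline, against 0.04 and -0.02 over all genes tested.

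Of 11 tested transporters of bile salts, sterols and conjugates, 1 was higher after the operation, against the 11.1% of all genes. Slco1a4, an uptake carrier of organic anions, was at 0.378 ± 0.268 CPM in preSTC and 1.86 ± 1.33 CPM in postSTC, a log2 fold change of 2.27 ± 0.64 (SE) with an adjusted p of 0.0301 by edgeR. In preSTC, 5 of the 11 were higher than in preCTC (19.1% of all genes) and Abcc4 was lower (19.6%). The 5 included the sterol efflux transporter gene Abcg5 (log2 fold change 4.82 ± 0.88, edgeR adjusted p 0.00125) and the efflux pump gene Abcg2 (3.11 ± 0.36, edgeR adjusted p 5.78e-05). Abcg8, the partner of Abcg5, had at most 0.0482 CPM in any preCTC library and 6.35 ± 3.29 CPM in preSTC. Abcg5, Abcg8 and Slco1a5, among the 5, lay at or near 0 in preCTC and passed the filter on low counts through the other groups, so they had to differ from preCTC to be tested. The list's median log2 difference was 0.28 after the operation and 0.49 at baseline.

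Of 10 tested genes of bile acid synthesis and conjugation, 2 were higher after the operation by edgeR's quasi-likelihood test, against 11.1% of all genes. Cyp27a1, the sterol 27-hydroxylase of the acidic pathway, was at 10.5 ± 1.86 CPM in preSTC, 21.3 ± 4.73 CPM in postSTC and 33.7 ± 11.1 CPM in preCTC. Its log2 fold change from preSTC to postSTC was 1.02 ± 0.24 (SE), with an edgeR adjusted p of 0.0133. Slc27a2, an acyl-CoA synthetase gene, was at 0.0680 CPM in preSTC and 0.913 CPM in postSTC, with an edgeR adjusted p of 0.0097, and lay near 0 in preSTC. It passed the filter on low counts through the other groups, which favoured a difference from preSTC. The receptor side of the hormone had 6 tested genes, of which 2, Fgfr1 (log2 fold change 0.49 ± 0.15, edgeR adjusted p 0.0465) and Fgfr3 (0.50 ± 0.12, 0.0173), were higher after the operation. Fgfr4 and Klb, which encode the receptor and co-receptor of the hormone in the liver, had log2 fold changes of -0.39 and 0.33 (edgeR adjusted p 0.301 and 0.761). The median log2 differences of these lists were 0.32 and 0.10.

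Of 13 tested transcription factors of the intestinal epithelium, 1 was lower after the operation by edgeR's quasi-likelihood test, a share near the 6.90% of all genes. This was Maf, at 298 ± 28.1 CPM in preSTC and 186 ± 44.9 CPM in postSTC, a log2 fold change of -0.67 ± 0.20 (SE) with an edgeR adjusted p of 0.0405. In preSTC, 7 were higher than in preCTC (19.1% of all genes) and 3 were lower (19.6%). The higher ones with the largest fold changes were Gata5 (8.27 ± 0.39), Creb3l3 (7.65 ± 0.78) and Hnf4g (2.79 ± 0.53), with edgeR adjusted p-values of 1.03e-07, 2.56e-05 and 0.00166. Gata5 and Creb3l3 lay near 0 in preCTC, at most 0.366 and 0.355 CPM, and passed the filter through the other groups, so they had to differ from preCTC to be tested. Hnf4g was at 114 CPM in preCTC5 and at 18.0 to 30.3 CPM in the other preCTC libraries. The list's median log2 difference was -0.47 after the operation and 0.92 at baseline.

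Over the 12 libraries, the genes outside the 10 whose log2 CPM ran most like that of Slc10a2 were Slc6a19 and Slc13a1 (Pearson r 0.996 for both), Enpep, RGD1561958 and Otc (0.994 for these 3). Slc6a19 encodes a brush border carrier of neutral amino acids, Slc13a1 a sulphate carrier, Enpep a brush border peptidase and Otc an enzyme of the urea cycle. The libraries fall into groups that differ greatly in these genes, so the coefficients describe mainly the group levels. Slc6a19 was at 703 ± 72.0 CPM in preSTC, 262 ± 27.9 CPM in postSTC and 0.777 ± 0.299 CPM in preCTC. Among the 10 genes themselves, Fabp6 was closest to Slc10a2 (r 0.995), then Fgf19 (0.974), Slc51a and Slc51b (0.972 each), Abcc2 (0.935), Abcb11 (0.870) and Malrd1 (0.863). Nr1h4 reached 0.628, and Abcc3 was at -0.76.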

How the data were processed

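Polyadenylated RNA of 12 rat intestine samples was sequenced, and groups and replicate numbers were read from the titles. The authors deposited whole read counts per gene for each library and FPKM values, which were proportional to count over total within each gene. The submitters' processing notes name fastp, HISAT2, HTSeq and the assembly mRatBN7.2, while the series' design text describes pig ileum and other tools and was not used. How strand and multi-mapped reads were handled is not given in the sources used here.

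Counts were analysed in R 4.3.3 with edgeR 4.0.16 (TMM scaling, filterByExpr by group, 15704 of 18749 genes kept). A quasi-likelihood model with group as its term was fitted to 12 libraries, each gene was tested two-sided, and p-values were adjusted by Benjamini-Hochberg. The threshold was 0.05. SE was taken as the log2 fold change over the root of the F statistic. The fit was tested on simulated data. DESeq2 1.42.0 and limma 3.58.1, the latter also on log2(FPKM + 1) and log2(FPKM + 0.1), served as alternatives. The 10 genes and all gene lists were chosen with earlier results of these data known. From the 5 pathway lists, at most 4 called genes per list and comparison were eligible to be named, by the size of the fold change, and Nr0b2, Fgfr4 and Klb were named after their values were seen. The 5 genes nearest to Slc10a2 by Pearson r were named too. Same-numbered postSTC and preSTC libraries deviated together (r 0.158 to 0.236 for 3 pairs, -0.171 to 0.130 for differently numbered ones). For preSTC and preCTC, same-numbered pairs had r of -0.0278 to 0.222 (-0.268 to 0.161 for differently numbered ones). For postSTC and preCTC, they had r of -0.0159 to 0.220 (-0.187 to 0.157). The labels state no pairing, so the main fit holds no block, and fits with the numbers as a block are given beside it. Any pairing is read from the data and not from the labels. Replicates differed by more than sampling noise (chi-square per gene at least 33.2), so none was treated as a duplicate.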

Additional observations from a re-analysis of the deposited data

Results flagged for a closer look

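In each of the 30 sets formed by a gene and a group of 4 libraries, the highest and lowest library were set against the rest with Dixon's gap ratio. Chance alone marks about 1 in 20 such sets. Fgf19 in preCTC9 was at 0.0241 CPM, from 1 count, where the other 3 preCTC libraries were at 0. Abcb11 in preCTC5 was at 0.760 CPM, where the next library was at 0.361 CPM and the lowest at 0.283 CPM, a gap of 0.836 of the range, above the 95% critical value for 4 samples.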

How the results depend on the processing

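For postSTC against preSTC, where 3 of the 10 genes were called lower, DESeq2 called 6, adding Fabp6 (adjusted p 0.0425), Slc51b (0.0403) and Abcb11 (0.0254). With the replicate numbers as a block, 0 were called in the 8 libraries compared (66 genes in all against 2833), 4 in all 12 libraries (1746 genes) and 3 when numbers paired only these 2 groups (1480 genes, a setting chosen after seeing the data). With an epithelial or a smooth muscle score as a covariate 0 were called (650 and 161 genes, with 2 and 4 of the 10 lower at an unadjusted p under 0.05), and limma on log2(FPKM + 1) or log2(FPKM + 0.1) called 2 (521 and 653 genes). The share of all genes at an unadjusted p under 0.05 is not given here. Leaving out each library gave 2 to 4. For preSTC against preCTC, the count of genes called lower was 0 in place of 1 with the smooth muscle covariate and with both FPKM settings, and 0 to 1 without each library. The count called higher was 5 in place of 9 with the smooth muscle covariate (723 genes in all against 6077) and 9 without each library. For postSTC against preCTC, the 8-library block left 2 called higher in place of 8 and 0 lower in place of 1 (151 genes in all against 2612), and leaving out each library gave 7 to 8 higher and 1 lower. The cause of these moves was not tested. The smooth muscle score of preSTC overlapped with neither postSTC nor preCTC, so fits with it can hardly separate the score from the group. In the 8-library blocks of postSTC, the numbers 2 and 9 had no partner, so each contrast rests on 3 pairs. Log2 fold changes that changed sign all belonged to genes not called in that comparison. From preSTC to postSTC, Abcc2 was -0.17 with the 8-library block and -0.16 with the block on these 2 groups, Abcc3 was 0.19 with the epithelial and 0.12 with the smooth muscle covariate, and Malrd1 was 0.11 with the epithelial covariate. From preCTC to postSTC, Nr1h4 was -0.022 with the 8-library block, and -0.010 and -0.028 with 1 and 0.1 added to the FPKM. Depth limits Fgf19, Abcc2 and Slc10a2 in preCTC, where they held 1, 26 and 49 counts.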
